A study of Mus musculus with 8 samples.

Results

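Interferon beta and 5 interferon-stimulated genes were examined for binding of the transcription factor IRF5 in mouse bone marrow-derived macrophages. The 6 genes, Ifnb1, Isg15, Isg20, Ifit1, Irgm1 and Bst2, are members of 20824 genes that the deposited peak lists name. A peak was assigned to a gene when the authors' annotation gave that gene as its nearest one or placed the peak in the gene's Promoter class. By this rule the 6 genes had 21 peaks in the 4 libraries, 8 of them in the Promoter class, and 7 peaks in the 2 lists of whole conditions. Every one of these peaks had its own gene as the nearest.

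Binding was measured by CUT&Tag, in which an antibody directs a transposase to the DNA beside its target protein, and anti-IRF5 libraries were made from wild-type cells given PBS (control) or stimulated with CpG, 2 libraries per condition. CpG is DNA with unmethylated CG dinucleotides that activates Toll-like receptor 9. Cells were thawed from cryovials before the assay. The labels give no dose or duration of CpG, no age of the mice, and no word on whether each library had its own animal or culture. The series also holds 4 IgG samples, for which no separate peak list was analysed here. By the names of the single-library lists, peaks were called against IgG of the same condition, so the background library and the condition cannot be told apart. The names of the lists of whole conditions give no background.

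The 4 lists held 13553 to 37315 peaks, the fewest in CpG 1, which stood apart, and library depth is unknown. Counts of genes by pattern are given without CpG 1 as well. A promoter-class peak was found at 5 to 9 of the 11 named macrophage markers, with Adgre1, Cd68, Cebpa and Msr1 marked in all 4 libraries. It was found at 0 of 3 named B cell markers in any library, at 0 or 1 of 4 T and NK cell markers, at 0 to 2 of 6 neutrophil markers, at 1 of 2 erythroid and megakaryocyte markers, at 1 of 3 stromal and endothelial markers and at 2 to 5 of 6 dendritic cell markers. Only a gene nearest to some peak is named, so markers without such a peak drop out of these totals. In full there were 12 macrophage markers, and 6 each for B cells, for erythroid cells and megakaryocytes, and for stromal and endothelial cells. For each of the other types there were 8. The erythroid and megakaryocyte marker found was Pf4. The stromal and endothelial one was Pecam1, by a peak with Milr1 as its nearest gene. Peaks do not measure expression, and the part of any other cell type in the results below was not tested.

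Interferon beta, encoded by Ifnb1, is the type I interferon that macrophages secrete early after a Toll-like receptor or nucleic acid sensor has been engaged. It acts through the receptor Ifnar1 and Ifnar2 on the same and neighbouring cells, and the signal then leads to the binding of interferon-stimulated response elements in the promoters of the stimulated genes. Factors of the IRF family, IRF5 among them, recognise closely related DNA, in which copies of the bases GAAA recur. IRF5 is activated downstream of the adaptor MyD88 and is known for its part in the induction of inflammatory cytokines and type I interferon.

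The DNA just upstream of 5 of the genes is shown because it holds the kind of element that IRF proteins recognise. By the gene starts in the peak lists, a promoter-class peak covered the last 200 bases before the start at Bst2 alone of these 5. Each line gives the 200 bases before the start of the gene in the RefSeq table of build GRCm38.p6, 5′ to 3′ on the strand of the gene. Capitals mark every match, on either strand, to the IRF core AANNGAAA or to the response element core GAAANNGAAA, where N is any base. The second motif contains the first. The stretches lie at chr8:71537473-71537672 (minus strand), chr11:48871421-48871620 (minus strand), chr19:34640689-34640888 (plus strand), chr4:156200819-156201018 (minus strand) and chr4:88522795-88522994 (minus strand).
Bst2: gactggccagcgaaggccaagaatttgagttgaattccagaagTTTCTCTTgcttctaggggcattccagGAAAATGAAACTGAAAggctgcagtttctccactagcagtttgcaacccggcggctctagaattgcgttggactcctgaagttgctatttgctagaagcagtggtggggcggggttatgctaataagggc
Irgm1: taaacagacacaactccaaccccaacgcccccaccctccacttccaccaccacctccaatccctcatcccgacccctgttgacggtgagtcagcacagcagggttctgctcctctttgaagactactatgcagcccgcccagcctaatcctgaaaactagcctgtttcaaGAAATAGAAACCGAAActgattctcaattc
Ifit1: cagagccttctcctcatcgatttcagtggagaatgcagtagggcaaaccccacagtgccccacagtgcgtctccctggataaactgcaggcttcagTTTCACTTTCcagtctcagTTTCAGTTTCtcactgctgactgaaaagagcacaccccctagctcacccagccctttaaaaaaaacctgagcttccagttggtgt
Isg15: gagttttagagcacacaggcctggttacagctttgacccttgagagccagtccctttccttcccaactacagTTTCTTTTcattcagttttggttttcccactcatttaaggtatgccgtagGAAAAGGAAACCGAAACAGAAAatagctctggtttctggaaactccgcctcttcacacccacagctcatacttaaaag
Ifnb1: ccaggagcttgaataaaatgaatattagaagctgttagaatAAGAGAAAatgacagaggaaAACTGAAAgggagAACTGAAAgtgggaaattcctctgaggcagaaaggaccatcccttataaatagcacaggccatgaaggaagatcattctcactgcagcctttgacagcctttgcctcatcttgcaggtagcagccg

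In the 250 bases before the start, GAAANNGAAA matched 2 times at Bst2, Irgm1 and Ifit1 each, 3 times at Isg15 and 0 times at Ifnb1. Matches overlapped one another at Bst2, Irgm1 and Isg15, and those of Ifit1 lay on the opposite strand. At least 1 match was present in 2.98% of the 32851 promoter windows of the same length in the table. The shorter AANNGAAA, present in 21.3% of these windows, matched 3 times at Ifnb1, 4 times at Isg15, 3 times at Bst2 and 2 times at Ifit1 and Irgm1 each. Isg20 had 3 start sites in the table, and only 1 of their windows held a match, a single AANNGAAA. A match is a description of the letters and does not show a bound site. The peak lists use another annotation. Their genome build is not stated in the sources used here, and positions below are those of the files. Gene lengths differ between the 2 annotations by 15 bp for Bst2, 19 bp for Ifit1 and Ifnb1, 27 bp for Isg20, 52 bp for Isg15 and 3541 bp for Irgm1, and the sequence of Irgm1 is therefore not set against its peaks.

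Promoter-class peaks were called at Irgm1 in all 4 libraries, at Bst2 and Isg20 in both libraries of the control and no library of CpG, and at Ifnb1, Isg15 and Ifit1 in none. In numbers, 3 of the 6 genes had such a peak in control 1 and in control 2, and 1 of 6 in CpG 1 and in CpG 2. Over all named genes the shares for the same libraries were 24.1%, 28.6%, 10.4% and 22.2%. The control-only pattern of Bst2 and Isg20 was shared by 4.36% of named genes, and the pattern of Irgm1, bound in all 4, by 5.51%. Of the 3753 genes with a promoter-class peak in both control libraries, 24.2% had none in either CpG library, against 2 of the 3 such genes here. No member was bound in both CpG libraries alone, a pattern of 0.61% of named genes. Without CpG 1, and likewise without CpG 2, no other member became control-only. Bst2 and Isg20 remain so by the rule itself when a CpG library is left out.

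Counting peaks of any class, the control libraries had a peak at 4 and 5 of the 6 genes and the CpG libraries at 2 and 4, where the shares of named genes were 65.8%, 73.8%, 44.4% and 63.5%. Ifit1 and Irgm1 had one in every library, as did 26.3% of named genes. Isg20 was the only member with a peak of any class in both control libraries and none from CpG, a pattern of 8.01% of named genes. Isg15 had its one peak in control 2 and Ifnb1 its one peak in CpG 2. The reverse pattern, both CpG libraries and no control, was that of 1.52% of named genes and 0 members. The control condition list had a promoter-class peak at 3 members (24.9% of named genes) and the CpG condition list at 0 (15%). The members were chosen with results of these data known, and so few genes carry no test of their own.

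**Figure D1:**
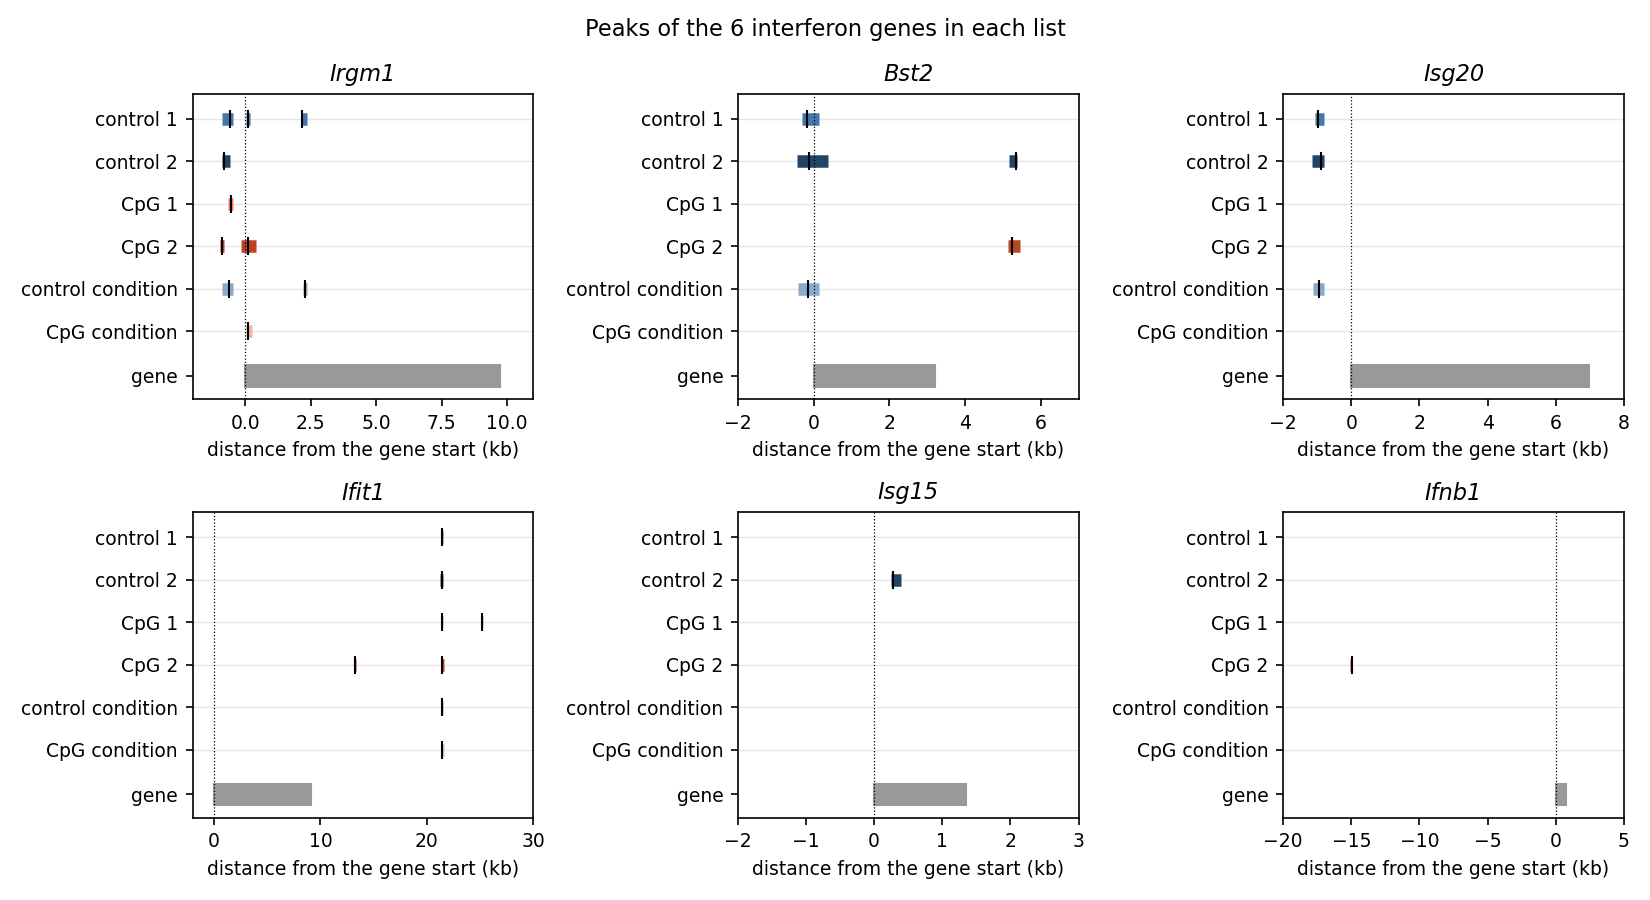
Peaks of the 6 genes along the distance from the gene start in kb, 1 row per list, with coloured bars for the extent of a peak, black ticks for its summit and a grey bar for the gene. Promoter-class peaks are seen at Irgm1 in all 4 libraries and at Bst2 and Isg20 in both control libraries, Isg15 has 1 peak inside the gene in control 2, and the only position shared by all 6 lists is that beyond the end of Ifit1.

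Bst2 encodes tetherin, a membrane protein that holds budding enveloped viruses at the cell surface. The gene (ENSMUSG00000046718) lies on chromosome 8 from 71986898 to 71990100, on the minus strand. Control 1 had a peak over its start from 71989948 to 71990413, with a pileup of 20 fragments at the summit, a fold enrichment of 7.80 and a −log10 p of 15.6. Control 2 had one from 71989711 to 71990532, with a pileup of 28, a fold enrichment of 10.7 and a −log10 p of 24.8. Fold enrichment is the authors' ratio of a peak's summit to its local background, and it serves here to rank peaks within a list. By that rank the Bst2 peaks stood at percentile 80.5 of control 1 and 86.9 of control 2, the highest of the 3 promoter-bound members in both libraries. Neither CpG 1 nor CpG 2 had a peak of any class that overlapped them.

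The summits at Bst2 were at -170 bp and -129 bp from the gene start of the files, and the authors' distances, which run from the middle of a peak, were -80 and -21 bp. The control peaks covered the start, from -313 to 152 bp and from -432 to 389 bp. In the RefSeq sequence above, the matches to GAAANNGAAA at Bst2 reach from -130 to -115, counted from the RefSeq start, and how far that start is from the start of the files is unknown. Summits within 250 bp of the start were the case for 49.4% of promoter peaks in control 1 and 47.7% in control 2.

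A second place near Bst2 had peaks in both conditions. It lay beyond the end of the gene, about 5 kb from its start, with a fold enrichment of 3.94 in control 2 (71984717 to 71984945) and of 6.20 in CpG 2 (71984634 to 71984952). These stood at percentile 7.11 of control 2 and 50.6 of CpG 2, and control 1 and CpG 1 had no peak there. The neighbouring gene Mvb12a had a promoter peak that reached 11.6-fold enrichment in control 1, 17.0 in control 2 and 5.97 in CpG 2. Within their lists these stood at percentiles 95.2, 95.8 and 47.4. Within 30 kb of Bst2 there were 4, 6 and 6 peaks in control 1, control 2 and CpG 2 and 0 in CpG 1. The Bst2 promoter peak was absent from CpG 2, which had called peaks at the neighbours, and from CpG 1, which had none in the neighbourhood. What lies behind either absence was not tested.

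Isg20 encodes an exonuclease that degrades single-stranded RNA, and its gene (ENSMUSG00000039236) lies on chromosome 7 from 78563171 to 78570144, on the plus strand. Control 1 had a promoter-class peak from 78562112 to 78562376 with a pileup of 15 and a fold enrichment of 7.20. Control 2 had one from 78562014 to 78562361 with a pileup of 19 and a fold enrichment of 7.36. The 2 peaks overlapped and stood at percentiles 75.3 and 67.3 of their lists. No peak of either CpG library overlapped them, and the CpG libraries had no peak at all with Isg20 as its nearest gene.

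The Isg20 peaks lay well upstream of the gene. The authors' distances were -927 bp in control 1 and -984 bp in control 2, and the summits were at -975 and -884 bp. Summits from 500 to 1000 bp upstream were the case for 15.1% and 15.8% of promoter peaks in these libraries. The place is outside the 250 bases searched for motifs. Within 30 kb of Isg20, CpG 2 had no peak and CpG 1 had 1, at the promoter of Aen, a nuclease gene of the p53 response.

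Irgm1 encodes an immunity-related GTPase with a part in the control of intracellular bacteria and in autophagy. The gene (ENSMUSG00000046879) lies on chromosome 11 from 48752794 to 48762510, on the minus strand. Its promoter-class peak reached a fold enrichment of 7.42 in control 1 (48762988 to 48763381), 6.95 in control 2 (48763087 to 48763382), 3.90 in CpG 1 (48762988 to 48763164) and 6.65 in CpG 2 (48763302 to 48763456). The pileups were 14, 13, 10 and 14. The corresponding percentiles were 76.8, 61.8, 16.1 and 58.8, so the peak ranked lowest in CpG 1, where its −log10 p of 5.46 was close to the lowest in that list, 5.00.

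The promoter peaks of the 2 CpG libraries did not overlap each other, and they were joined into 1 region of 469 bp only through the wider peaks of the control libraries. Their summits were at -592 and -804 bp from the start in the control libraries, and at -541 and -869 bp in the CpG libraries. Their range was 328 bp. Among the 3770 regions of the series with exactly 1 peak in each of the 4 libraries, the median range was 163 bp, and 86.3% had a range of at most 328 bp. The list of the whole control condition had this promoter peak, with a fold enrichment of 6.79, and the list of the CpG condition did not.

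Irgm1 also had a peak at its start, annotated to an exon, in 1 library of each condition. It was called in control 1 from 48762317 to 48762491 with a fold enrichment of 5.11 and a pileup of 12, and in CpG 2 from 48762112 to 48762666 with a fold enrichment of 9.75 and a pileup of 19. The summits were 94 and 99 bp downstream of the start, 5 bp apart. The control 1 peak lay inside the gene, from 19 to 193 bp, whereas the CpG 2 peak covered the start, from -156 to 398 bp. At percentile 84.2 the exon peak was the stronger of the Irgm1 peaks of CpG 2. In control 1, at percentile 36, it was the weakest of 3. The list of the CpG condition held the exon peak, with a fold enrichment of 5.89, and the list of the control condition did not. Control 1 alone of the libraries had an intronic peak, 2187 bp from the start, with a fold enrichment of 5.20.

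In 3 libraries the strongest peak within 30 kb of Irgm1 was beyond its end and had Gm16170, a gene with a predicted name, as the nearest gene. In control 1 the strongest ran from 48746975 to 48747985 with a fold enrichment of 15.7. In control 2 it ran from 48746299 to 48748839 with 37.9, and in CpG 2 from 48746136 to 48748006 with 17.3. These reached percentiles 98.5, 99.5 and 96.4, above every peak assigned to Irgm1 itself. CpG 1 had no peak at that place. The window of 30 kb was chosen after values had been seen.

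**Figure D2:**
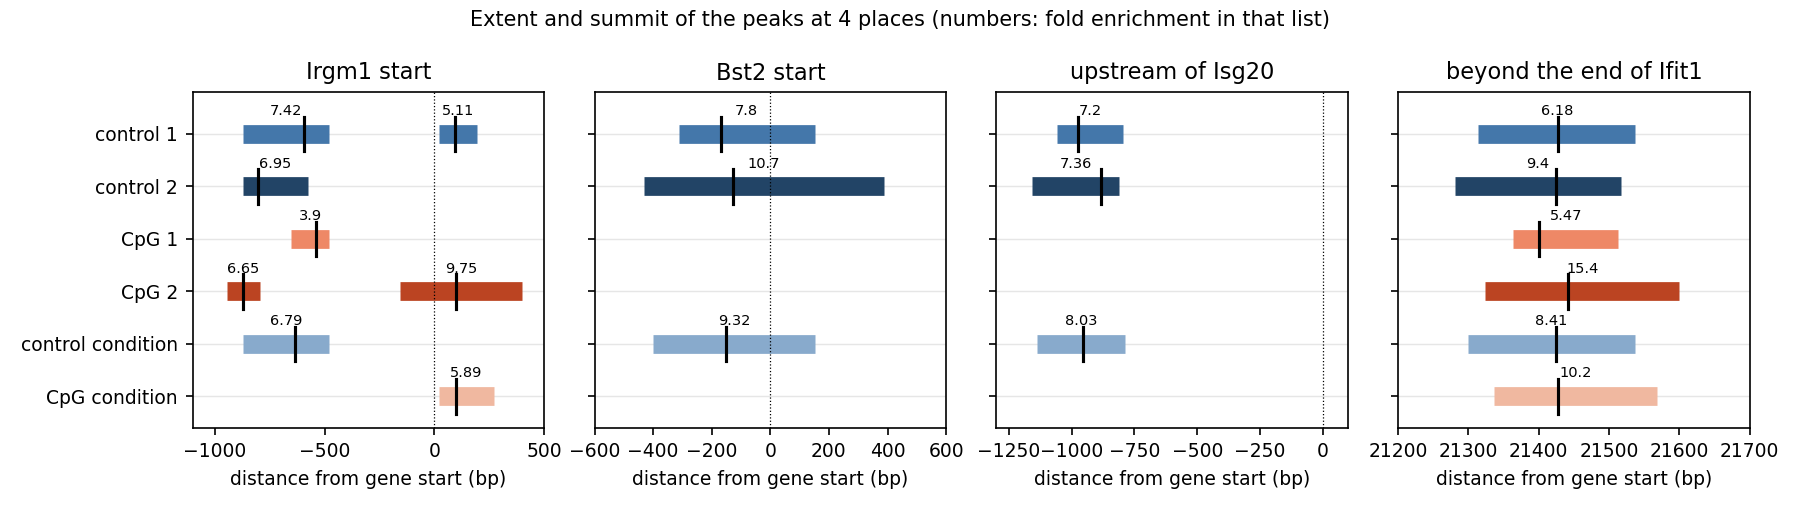
Peaks at 4 places by distance from the gene start in bp, 1 row per list, with bars for the extent, black lines for the summit and the fold enrichment in the same list above each bar. The Bst2 and Isg20 peaks are present in both control libraries and absent from both CpG libraries, the Irgm1 promoter peaks of the CpG libraries do not overlap, and the summits beyond Ifit1 fall within 42 bp.

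Ifit1 encodes an interferon-induced protein with tetratricopeptide repeats that binds foreign RNA ends, and it is among the genes most strongly induced by type I interferon. The gene (ENSMUSG00000034459) lies on chromosome 19 from 34618270 to 34627409, on the plus strand, and no library had a peak at its start. An intergenic peak beyond its end was called in all 4 libraries. It ran from 34639584 to 34639807 in control 1 and from 34639551 to 34639787 in control 2. In CpG 1 it ran from 34639634 to 34639783, and in CpG 2 from 34639594 to 34639870. The authors' distances from the Ifit1 start were 21425, 21398, 21438 and 21461 bp. The fold enrichments were 6.18, 9.40, 5.47 and 15.4 and the pileups 14, 21, 13 and 28 in the same order. The percentiles within the lists were 60.3, 81.8, 60.4 and 95.3.

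Of the peaks of the 6 genes, that beyond Ifit1 in CpG 2 ranked highest in its list, and this was the one region present in all 6 lists, with 8.41 in the control condition and 10.2 in the CpG condition. CpG 1 was level with control 1 and CpG 2 was highest, so the ranges of the conditions overlapped. The 4 summits fell within 42 bp of each other, and 7.61% of the regions with 1 peak in each library had a range as small. A peak in all 4 libraries was found for 10.1% of the 55621 merged regions and for 9.96% of the 16637 that were intergenic throughout. Each CpG library had 1 further intergenic peak with Ifit1 as the nearest gene, at 25202 bp in CpG 1 with a fold enrichment of 4.75 and at 13311 bp in CpG 2 with 5.30, and these did not overlap.

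Few peaks were called at the other Ifit genes, which lie on the same chromosome and were looked at after values had been seen. Ifit2 had a promoter peak of fold enrichment 5.57 in control 1 and a peak in its first exon and 5′ untranslated region, 160 bp from the start, with 6.25 in control 2. Ifit1bl1 had a promoter peak of 4.24 in control 1. Ifit3 had peaks only at -13238 and -13448 bp, inside Ifit2, in the 2 control libraries, and Ifit3b 1 peak, in its 3′ untranslated region, in control 2. In the CpG libraries the only peak nearest to one of these other genes was an intronic peak of Ifit2 in CpG 2, with 4.87. Genes of this family are similar in sequence, and how reads shared by copies were treated is not known.

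Isg15 encodes the ubiquitin-like protein that is attached to other proteins in interferon-treated cells. Its gene (ENSMUSG00000035692) lies on chromosome 4 from 156283911 to 156285253, on the minus strand. It had 1 peak in the 4 libraries, in an intron, in control 2, from 156284859 to 156284999. The pileup was 15, the fold enrichment 6.73 and the authors' distance 324 bp downstream of the start. Its length of 141 bp compares with a median of 341 bp in that list. The neighbouring gene Agrn had a promoter peak in control 1, control 2 and CpG 2, with fold enrichments of 4.91, 4.06 and 3.35, and these lay 1180 to 1227 bp beyond the end of Isg15. No library had a peak over the stretch of Isg15 printed above, as far as the annotation of the files places its start.

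Ifnb1 (ENSMUSG00000048806) lies on chromosome 4 from 88440261 to 88441011, on the minus strand. It was the nearest gene of a single peak, in CpG 2, from 88455939 to 88456082. This intergenic peak was at -14999 bp, with a pileup of 10, a fold enrichment of 5.36 and percentile 35.1. No library of either condition had a peak at the Ifnb1 promoter or anywhere else within 30 kb, except for CpG 1, where a peak from 88462098 to 88462247 had Ifna15 as its nearest gene. The 2 peaks of the CpG libraries did not overlap.

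Among themselves, the members ranked differently from library to library. In control 1 the order of the strongest peaks by percentile was Bst2 (80.5), Irgm1 (76.8), Isg20 (75.3) and Ifit1 (60.3). In control 2 it was Bst2 (86.9), Ifit1 (81.8), Isg20 (67.3), Irgm1 (61.8) and Isg15 (59.8). In CpG 1 only Ifit1 (60.4) and Irgm1 (16.1) had peaks. In CpG 2 the order was Ifit1 (95.3), Irgm1 (84.2, its exon peak), Bst2 (50.6, the peak beyond its end) and Ifnb1 (35.1). Bst2 was highest in both control libraries. The order of Irgm1, Isg20 and Ifit1 was reversed between these libraries and is not resolved.

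**Figure D3:**
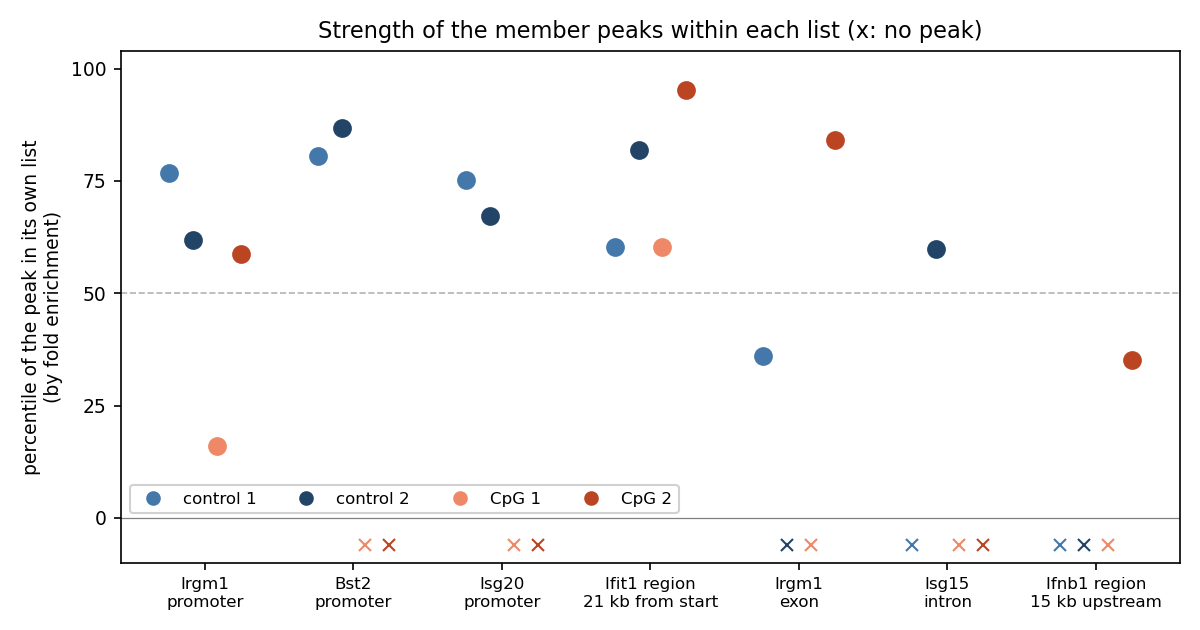
Percentile of each peak by fold enrichment within its own list (vertical axis, percent) for 7 places at the 6 genes, 1 point per library, with a cross where a library had no peak and a dashed line at the median of a list. Bst2 and Isg20 promoters have points for the control libraries alone, and the region beyond Ifit1 has a point for all 4, from 60.3 to 95.3.

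The numbers of peaks nearest to a gene gave no difference between conditions that the design could establish. Ifit1 had 1 peak in each control library and 2 in each CpG library, and Isg20 had 1 in each control and 0 in each CpG library. For both, the exact permutation test (two-sided, 6 ways to assign the libraries) gave p = 0.333, the smallest possible, and 0.999 after Benjamini-Hochberg adjustment over the 6 genes. More nearest peaks in both control than in either CpG library were seen for 17.9% of named genes, and the opposite for 2.12%. Irgm1 had 2.0 ± 1.41 peaks in the control and 1.5 ± 0.707 in the CpG libraries (SD, n = 2 each), and Bst2 had 1.5 ± 0.707 and 0.5 ± 0.707 (SD, n = 2 each), with exact permutation p of 1 and 0.667. Where nothing says that libraries are separate cultures, these tests measure the spread between libraries, which may be technical.

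A wider list of interferon-stimulated genes showed no direction common to its genes. It held 58 genes, the 5 stimulated members included, of which 45 were named in the files. The control libraries had a promoter-class peak at 16 (35.6%) and 15 (33.3%) of them, CpG 1 at 9 (20%) and CpG 2 at 19 (42.2%), against the 24.1%, 28.6%, 10.4% and 22.2% of all named genes. Without the members, 13 (32.5%), 12 (30%), 8 (20%) and 18 (45%) of 40 were bound, so that control 2 was near the share of all named genes. The lists were chosen by hand and these shares carry no test. Bst2 and Isg20 were the only control-only genes of the list, Trim21 the only CpG-only gene, and Irgm1, Tor3a, Trim25 and Trim30a were bound in all 4 libraries. These were 2, 1 and 4 of the 45, where the shares of all named genes were 4.36%, 0.61% and 5.51%. Another 18 of the 45 had no promoter-class peak in any library, and the share of all named genes with none was not computed. Peaks of other classes can still lie near a start. Gbp5, among these 18, had a summit within 1 kb of its start in all 4 libraries. The counts by pattern turned on single libraries. Without CpG 1 the control-only genes were 2 and the CpG-only genes 5 (Gbp3, Parp9, Trim21, Uba7 and Zbp1), and without CpG 2 they were 6 and 2. Without control 1 they were 4 and 2, and without control 2 they were 5 and 3. A rule with fewer libraries asks less. The share of all named genes that meets it was not computed, so these counts are not read as a trait of the list.

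Trim21, which encodes a ubiquitin ligase and cytosolic antibody receptor, had promoter peaks of fold enrichment 5.62 in CpG 1 and 6.89 in CpG 2 and no nearest peak of any kind in the control libraries. Rsad2, the gene of the antiviral enzyme viperin, had promoter peaks of 9.93 in control 2, 6.31 in CpG 1 and 13.8 in CpG 2, at percentiles 84.4, 77.1 and 93.5, and none in control 1. The chemokine gene Cxcl10 had 5.29, 4.03 and 10.9 in the same libraries, at percentiles 31.9, 19.8 and 88, and again none in control 1. For Rsad2 it was the promoter class that was missing in control 1, since that library had a peak of another class with its summit within 1 kb of the start, whereas Cxcl10 had no nearest peak of any class there. Ifi204, which encodes a DNA-binding protein of the interferon-inducible p200 family, had the highest fold enrichments of the list, 18.1 in control 1, 37.7 in control 2 and 25.3 in CpG 2, and no peak in CpG 1. Trim30a had 14.1, 12.9, 4.34 and 7.28 in the control and then the CpG libraries, and Tor3a 9.18, 7.21, 5.50 and 12.1.

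Genes that lead to interferon production were bound at 13 and 11 of 19 named genes in the control libraries, at 3 in CpG 1 and at 9 in CpG 2. These were 68.4%, 57.9%, 15.8% and 47.4%, where all named genes gave 24.1%, 28.6%, 10.4% and 22.2%. Those bound in all 4 libraries were Tlr9, which encodes the receptor of CpG DNA, the adaptor gene Myd88 and the kinase gene Tbk1. This pattern was that of 5.51% of named genes. Tlr9 had fold enrichments of 10.2, 6.74, 4.34 and 7.26 in the same order of libraries. Without CpG 1 the genes bound in every library were 7 in place of 3, with Irf5, Ticam1, Traf3 and Unc93b1 added, and Irak1 became CpG-only. The promoter peak of Myd88 had the neighbouring Acaa1a as its nearest gene in the control libraries. Irf3, which encodes the factor best known for switching on Ifnb1, and Mavs, the adaptor gene of RNA sensing, were control-only, as were 4.36% of named genes. Irf3 had fold enrichments of 3.99 and 4.13, low in their lists at percentiles 9.05 and 9.51, and Mavs had 8.19 and 5.43. Neither had any nearest peak in a CpG library. The control-only genes were 0 with lists of equal length, and 6 without CpG 2 and with the condition lists. They were 4 without control 1 and 5 without control 2. The shares of all named genes by pattern were not computed for these settings.

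Genes of interferon receptor signalling were bound at 9 of 15 in control 1, control 2 and CpG 2 alike (60%) and at 3 in CpG 1 (20%), where all named genes gave 24.1%, 28.6%, 22.2% and 10.4%. The receptor gene Ifngr1 and the feedback inhibitor gene Socs3 were bound in all 4 libraries, Ifngr1 with fold enrichments of 10.8, 12.4, 2.62 and 6.12 and Socs3 with 6.69, 4.56, 3.18 and 8.71. Over all named genes, 5.51% were bound in all 4 libraries, 4.36% were control-only and 0.61% CpG-only. None of the 15 was control-only or CpG-only. Without CpG 1, 6 were bound in every library and Ptpn6 was CpG-only, and without CpG 2 the control-only genes were 4. They were 2 without control 1 and likewise 2 without control 2, where Tyk2 was CpG-only. The shares of all named genes by pattern were not computed with a library left out. Of the 20 interferon genes, 8 were named in the files, and 0 of these had a promoter-class peak in any library. Interferon genes were the nearest to 25 peaks in all, at fold enrichments from 3.50 to 10.6, and 3 of the peaks, all of Ifnz, lay within 2 kb of a start.

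**Figure D4:**
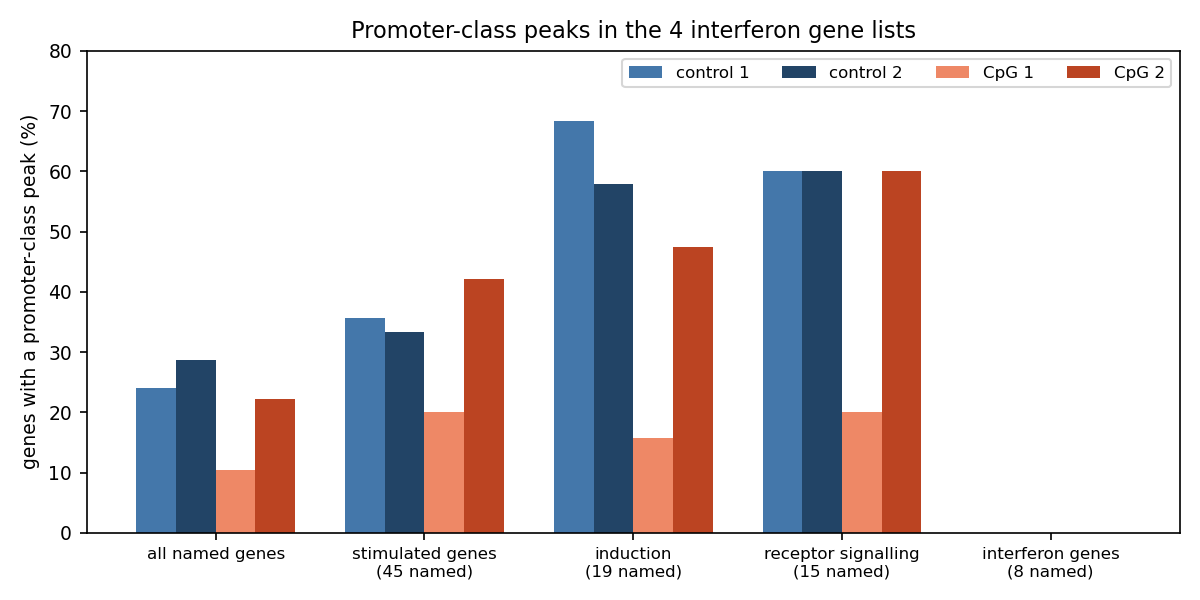
Share of named genes with a promoter-class peak (vertical axis, percent) for all named genes and for the 4 interferon lists, 1 bar per library, with the number of named genes under each list. Bars of CpG 1 are the lowest in every list with any bound gene, those of the stimulated genes are above the bars of all named genes in each library, and the interferon genes have no bars because all 4 shares are 0.

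Genes with the most similar promoter pattern were found by the Euclidean distance between percentiles in the 4 libraries, with 0 where there was no promoter peak, over 8321 other genes. Nearest to Bst2 were Kmt5a (percentiles 80.9 and 88.3 in the control libraries), Atg4d (80.5 and 88.6) and Gm20100 (79.7 and 84.8), the last of which also had a weak promoter peak in CpG 2, at percentile 0.468. Nearest to Isg20 were Akap11 (77.0 and 67.3), Notch2 (77.0 and 67.9) and Pfdn6 (75.8 and 69.6). The distances were 1.54 to 2.42 percentile points. Nearest to Irgm1 were Gm44198, Klhdc10 and Tcirg1, at larger distances of 8.86, 10.9 and 12.5. None of the 9 genes is in an interferon list, and likeness over 4 libraries says nothing of a shared function.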

How the data were processed

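The data are 6 annotated peak lists of anti-IRF5 CUT&Tag, 4 of single libraries and 2 of whole conditions, deposited by the authors. Per the submitters' processing notes, the tools were MACS2 2.1.0, ChIPseeker, BWA 0.7.12 and fastp 0.20.0. A genome build and the way libraries were joined are not stated in the sources used here. Each deposited peak has a pileup signal at its summit (whole in the single libraries), a fold enrichment (a ratio to local background), and the −log10 of its p-value and q-value. The last 2 columns have damaged headers and were identified from their order and values, with a lowest −log10 p of 5.00 to 5.02 in the single libraries.

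Lines that continued an overlong cell were skipped (281 to 1017 per single-library list), and peaks on the 21 assembled nuclear chromosomes were kept. The authors' distance was reproduced from the middle of each peak within 2 bp for 100% of peaks, and summit distances were computed beside it. A percentile is the share of a list's peaks with a lower fold enrichment. Fold enrichments are not compared between lists, and no model was fitted because the lists hold no counts. Peaks overlapping by 1 bp were merged. Control-only means a promoter-class peak in each control library and in no CpG library. Names exist only for genes nearest to a peak. Nearest-peak numbers were set against each other by exact permutation, two-sided. Work was done in Python 3.11.15 with pandas 2.3.3, and the calling rule and tests were tested on simulated data. The members and lists were chosen with earlier results of these data known. Genes named are the 6 members, list genes that were control-only, CpG-only or bound in all 4 libraries with up to 12 others per list, and the 3 genes nearest in pattern to each member bound in at least 2 libraries. Neighbouring genes and the other Ifit genes were named after their values were seen. Alternatives were another class of peak, a window of 1 kb, lists of equal length, a −log10 p of at least 10, the condition lists, stricter overlap, other rankings, peaks within 100 kb, the replicate block and leaving out each library.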

Additional observations from a re-analysis of the deposited data

How the results depend on the processing

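Bst2 and Isg20 were the control-only members under 10 of 12 alternatives. Those that left out libraries asked less, so Bst2 and Isg20 could not drop out there and are no support for the pattern. With any nearest peak only Isg20 remained (1), because CpG 2 has the peak beyond the end of Bst2, and with the condition lists Irgm1 joined them (3). No member was CpG-only under any of the 12. The overlap rules kept only members already called, so for them the 0 was fixed in advance. Once the rule against any overlap of 1 bp had kept Bst2 and Isg20, the rule that allowed some overlap could not remove them. Leaving out a library gave 2, 0 and 1 members control-only, CpG-only and in all libraries each time. Such rules could add members to a pattern but not remove them. Members in all 4 libraries became 2 with any nearest peak (Ifit1 added), a pattern of 26.3% of named genes. They became 0 with lists of equal length, with a −log10 p of at least 10 and with the condition lists. For alternatives other than any nearest peak, the shares of all named genes by pattern were not computed. These counts are therefore not read as a trait of the members.

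For the interferon-stimulated list, control-only genes (2) became 6 with the condition lists and 2 to 6 when a library was left out, a rule that then asks less. CpG-only genes (1) became 2 by summits within 1 kb and with lists of equal length, 0 with a −log10 p of at least 10, 5 with the condition lists and 2 to 5 without 1 library, the 5 without CpG replicate 1. Genes in all 4 libraries (4) became 11 with any nearest peak, 8 by summits within 1 kb, 2 with a −log10 p of at least 10, 8 with the condition lists and 4 to 8 without 1 library. With control 2 and CpG 2 alone, chosen after the data were seen, the 3 counts were 4, 8 and 11. The balance between the conditions in this list thus turned with CpG 1 and control 1 left out. Apart from any nearest peak, the shares of all named genes by pattern were not computed for these alternatives. Whether the turn is particular to this list was not tested.

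The control minus CpG number of nearest peaks reversed for Ifit1 with a −log10 p of at least 10 (0.5), and for Irgm1 with lists of equal length (-1.0) and without control replicate 1 (-0.5), the lowest of a range of -0.5 to 1.5 over the libraries left out. With the replicate number as a block, exact p-values were 0.5 to 1, and 0.5 is the smallest that 2 pairs allow. Nothing in the labels pairs the libraries, and over 8322 genes the deviations of same-numbered libraries correlated at 0.0634. Ranking by −log10 p or pileup, or among promoter peaks, moved 10 of 24 percentiles by more than the SD between replicates. By pileup, the Irgm1 promoter peak stood at percentiles 34.0, 20.9, 4.94 and 30.9 in control 1, control 2, CpG 1 and CpG 2. In control 1 and control 2, Isg20 stood at 40.1 and 53.6 by pileup, and the Bst2 promoter peak at 63.4 and 75.9. Depth is unknown, and member peaks rest on pileups of 9 to 28.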
